A study of Lithospermum officinale with 3 samples.

Results

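The stem transcriptome of *Lithospermum officinale*, a medicinal herb of the borage family, was set against the root transcriptome. 1 library of each organ was sequenced, from plants 2 years old grown outdoors, with polyadenylated RNA captured on oligo(dT) beads and a strand-specific kit. A leaf library from plants of the same age was used here to give a level beside the ratio, and its counts entered the choice of the most counted unigenes that are left out of the scale. The stated aim of the study was to find genes for specialized metabolites, and stem against root is one of the organ comparisons its design allows. The measured features were unigenes, sequences assembled from the reads themselves, which may be whole transcripts, pieces or variants of 1 locus. Unigenes were taken into the comparison where stem and root together held 10 or more expected counts, the read numbers that RSEM assigns to a unigene. This left 40723 of 77047 unigenes, or 52.9%, which carried 98.8% of all stem counts and 99.2% of all root counts.

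A stem carries water and sugars between the other organs, and in a herb its outer cells are often green and photosynthetic. A root takes up water and minerals and does not photosynthesise. In plants related to *L. officinale*, such as *L. erythrorhizon*, the root surface is known for red naphthoquinone pigments of the shikonin type. The files pair unigene IDs with no gene names or sequences, so none of these functions could be attached to a unigene, and markers of stem or root tissue could not be checked. The contrast is therefore described by abundance, by unigene length and by the level in leaf.

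The stem library held 4469828 expected counts and the root library 10045956. The 100 unigenes most counted over the 3 libraries took 43.5% of the stem counts (95% exact binomial interval 43.44% to 43.53%) and 56.7% of the root counts (56.65% to 56.72%). Levels are therefore given as CPM, counts scaled to 1000000 of the counts outside these 100, which were 2525988 in stem, 4351427 in root and 1432056 in leaf. On this scale 1 count was worth 0.396 CPM in stem, 0.230 CPM in root and 0.698 CPM in leaf. With 1 library per organ there was no replicate spread, no test between organs was possible, and every interval covers counting error only. In bulk tissue, fewer cells of a type and less RNA per cell cannot be told apart.

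Most unigenes had similar levels in the 2 organs, and those that differed strongly were more often higher in stem. The median log2 ratio of stem to root was -0.04, and 63.0% of the compared unigenes lay within 2-fold. The 5th and 95th percentiles of the log2 ratio were -2.62 and 3.77, so the stem-side tail was the longer one. A unigene was called stem-high or root-high where the whole 95% counting interval of its ratio lay beyond 4-fold. By this rule 2560 unigenes were stem-high, which is 6.29% of those compared, and 684 were root-high, which is 1.68%. By the ratio alone, with no interval, stem was over 4-fold higher for 4559 unigenes (11.2%) and over 4-fold lower for 3013 (7.40%). Stem-high unigenes thus made up 78.9% of the calls, and 88.1% with total library counts as the scale, where the 100 most counted unigenes enter and the median log2 ratio was 0.33.

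The rule was not equally easy to meet in both directions. With no count in root, 11 stem counts (4.35 CPM) sufficed for a call. With no count in stem, 28 root counts (6.43 CPM) were needed, since a root count stands against a shallower stem library. When root was thinned at random to the stem depth, 2097 unigenes were stem-high and 676 root-high, a stem share of 75.6%.

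The size of the difference, by the interval bound, also leaned to stem. Calls were sorted by the bound of the interval nearest to equality. Where the lower library had few counts, this bound could lie farther out for stem-high unigenes, since root was the deeper library. The sorting was not repeated with root thinned. Between 4- and 8-fold stood 1253 stem-high unigenes (48.9% of them) and 482 root-high ones (70.5%). The bound lay between 16- and 32-fold for 347 stem-high and 46 root-high unigenes, and between 32- and 64-fold for 141 and 11. At 64-fold or more there were 53 stem-high and 4 root-high unigenes. No root count was recorded for 611 of the stem-high unigenes, and no stem count for 173 of the root-high ones.

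Of the stem counts outside the 100 most counted, 16.6% fell on stem-high unigenes (exact interval 16.59% to 16.68%), as did 0.929% of the root counts (0.920% to 0.938%). Root-high unigenes took 0.785% of the stem counts (0.775% to 0.796%) and 8.02% of the root counts (7.999% to 8.05%). Few unigenes carried most of this: 192 of 2550 stem-high unigenes held 50% of their stem counts, and 53 of 670 root-high unigenes held 50% of their root counts. Summed over all compared unigenes outside the 100, 30.5% of these counts would have to be reassigned between unigenes to turn the stem profile into the root profile.

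The most counted unigenes called in each direction, outside the 100, give the scale of these differences. They are named by ID because no other name is given for them. Unigene53023 (1409 nt) was counted 4833 times in stem, 159 times in root and 732 times in leaf. This was 828 TPM in stem, 18.1 TPM in root and 155 TPM in leaf, where TPM is the deposited level per transcript length. Its ratio of stem to root was 52.4 (95% counting interval 44.7 to 61.7), with leaf between the 2.

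Unigene39816 (1190 nt) held 3926 stem, 136 root and 624 leaf counts, or 817, 18.8 and 161 TPM. Its ratio was 49.7 (41.9 to 59.4), and its order of organs was that of Unigene53023. The intervals of these ratios overlap.

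On the root side, Unigene57387 (2703 nt) held 18 stem, 6555 root and 1 leaf count. It was 211-fold higher in root than in stem (134 to 357), at 1.51 TPM in stem and 365 TPM in root. Unigene39917 (2765 nt) held 343 stem, 6019 root and 153 leaf counts, or 28.0, 327 and 15.5 TPM. It was 10.2-fold higher in root than in stem (9.13 to 11.4). These unigenes had very different stem levels, while their similar root levels come partly from picking both by summed count.

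Abundance changed both the centre and the width of the ratio. Bands were set on the mean CPM of stem and root, which weights both libraries equally. The median log2 ratio was -0.08 for the 8570 unigenes below 3 CPM, and 0.21 there with root thinned to the stem depth (5431 unigenes). It was 0.14 for the 12662 unigenes at 3 to 10 CPM, -0.05 at 10 to 30 CPM (11324 unigenes) and -0.18 at 30 to 100 CPM (6291 unigenes). At 100 to 300 CPM it was -0.26 over 1495 unigenes, and at 300 CPM or more -0.28 over 381 unigenes. The typical abundant unigene was thus slightly lower in stem on this scale, though with total counts as the scale the medians above 30 CPM were positive, at 0.20, 0.12 and 0.10. Unigenes at 100 CPM or more lay 0.40 below those at 3 to 10 CPM on the log2 scale, a difference that changed little with the library scale. It was -0.083 where 50 summed counts were required, a floor that 26.2% of the unigenes of 3 to 10 CPM passed, with a median log2 ratio of -0.18. At a given mean CPM, unigenes higher in root pass this floor more easily. The reason is that 1 count is worth 0.230 CPM in root and 0.396 CPM in stem. With root thinned to the stem depth the difference was -0.403.

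The spread was narrowest at 30 to 100 CPM, where the interquartile range of the log2 ratio was 0.99, and 72.9% of the unigenes lay within 2-fold. It was 2.14 below 3 CPM, where counting error alone would give 1.16. It was 1.78 at 300 CPM or more, where counting error alone would give 0.081. The range was thus 1.85 times that of counting error among the weakly counted unigenes and 21.8 times among the most abundant.

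**Figure D1:**
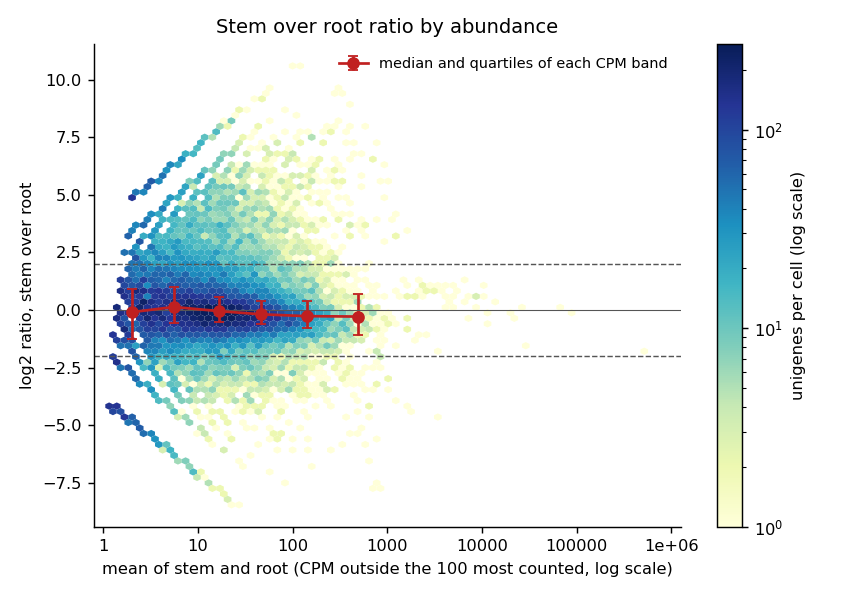
Log2 ratio of stem over root (vertical axis) against the mean of stem and root in CPM (horizontal, log scale) for the 40723 compared unigenes. Colour gives the number of unigenes per cell, red points and bars the median and quartiles of each band, and dashed lines 4-fold; the median is -0.08 below 3 CPM, 0.14 at 3 to 10 CPM and lower in each band above that, down to -0.28 at 300 CPM or more.

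The share of unigenes called by the interval rule was highest at 100 CPM or more, and the root side grew the more. The rule is easier to meet at higher counts, so these shares are not equally reachable in all bands. Stem-high unigenes were 7.17% of the band at 3 to 10 CPM, 7.05% at 10 to 30 CPM, 7.04% at 30 to 100 CPM, 10.4% at 100 to 300 CPM and 13.6% at 300 CPM or more. Root-high unigenes were 1.75%, 1.43%, 2.78%, 5.02% and 13.1% of the same bands. At 300 CPM or more the numbers were almost even, with 52 stem-high and 50 root-high unigenes, whereas at 10 to 30 CPM there were 798 and 162. The band at 300 CPM or more holds the 100 most counted unigenes, of which 10 were stem-high and 14 root-high. Below 3 CPM 204 unigenes were stem-high and 0 root-high, as the root counts needed for a call lie above that band. By the ratio alone, stem was over 4-fold higher for 13.9% at 3 to 10 CPM, 8.42% at 30 to 100 CPM and 13.9% at 300 CPM or more. It was over 4-fold lower for 5.42%, 4.09% and 13.6% of the same bands. Without the interval, only the root side was thus larger at 300 CPM or more than at 3 to 10 CPM.

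The 100 most counted unigenes had fewer stem-high than root-high calls on this scale, but slightly more ratios above 1 than below it. Among them 10 were stem-high and 14 root-high, and 53 had a ratio above 1 and 47 below it. Their log2 ratios ran from -7.79 to 6.64 with a median of 0.15 (rank-based 95% interval -0.30 to 0.57). Their summed CPM gave a stem to root ratio of 0.588. Without the single most counted unigene, whose own ratio was 0.306, that sum ratio was 1.02. At the edge of this set, the unigene ranked 100 had 6645 counts over the 3 libraries and the one ranked 101 had 6628.

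The ratio also followed unigene length, in bands that include their upper limit. Short unigenes were lower in stem: the median log2 ratio was -0.57 for the 456 unigenes of up to 300 nt and -0.37 for the 2916 of 300 to 500 nt. It was -0.02 at 500 to 1000 nt (12502 unigenes), 0.01 at 1000 to 2000 nt (16102 unigenes), -0.04 at 2000 to 3000 nt (6090 unigenes) and -0.11 above 3000 nt (2657 unigenes). With total counts as the scale, the median was -0.23 for unigenes of up to 300 nt, near 0 for those of 300 to 500 nt and above 0 in each longer band. Unigenes over 2000 nt lay 0.33 above those of up to 500 nt on the log2 scale. That difference was 0.095 where 1 summed count was enough, 0.25 where a mean of 3 CPM was required, a floor that treats both libraries alike, and 0.16 with root thinned to the stem depth. With root thinned, the bands up to 300 nt and at 300 to 500 nt still had medians of -0.45 and -0.21.

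Shortness went with low counts. The median count of unigenes at 300 to 500 nt was 5 in stem and 10 in root, against 84 and 152 above 3000 nt. No stem count was recorded for 14.5% of the unigenes of up to 300 nt, and no root count for 3.07% of them. Above 3000 nt these shares were 0% and 0.0753%. The effective lengths that RSEM used differed little between the libraries: for unigenes of up to 300 nt the median was 95.7 nt in stem and 97.7 nt in root. Ratios of deposited TPM, which take these lengths into account, gave a length difference of 0.32.

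The share of calls by length depended on the floor. With 10 summed counts required, stem-high unigenes made up 3.73% of the unigenes of up to 300 nt, 2.98% at 300 to 500 nt, 6.33% at 500 to 1000 nt, 7.73% at 1000 to 2000 nt, 5.62% at 2000 to 3000 nt and 2.90% above 3000 nt. Root-high unigenes were between 1.35% and 1.81% of every length band. With a mean of 3 CPM required, stem-high unigenes were 7.36% up to 300 nt, 5.57% at 300 to 500 nt, 9.08% at 500 to 1000 nt and 2.91% above 3000 nt. Root-high unigenes were then 4.91%, 4.57%, 2.83% and 1.36% of the same bands, a share that was lower in each longer band. The share within 2-fold was highest for the longest unigenes, at 79.8% above 3000 nt, compared with 45.6% up to 300 nt. Counting error differed between these bands. The interquartile range of the log2 ratio was 0.81 above 3000 nt, where counting error alone would give 0.27. Up to 300 nt it was 2.60, where counting error alone would give 1.13. The range was thus 2.97 times that of counting error above 3000 nt and 2.29 times up to 300 nt. The median length was 1223 nt for stem-high, 1230 nt for root-high and 1222 nt for the other unigenes.

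**Figure D2:**
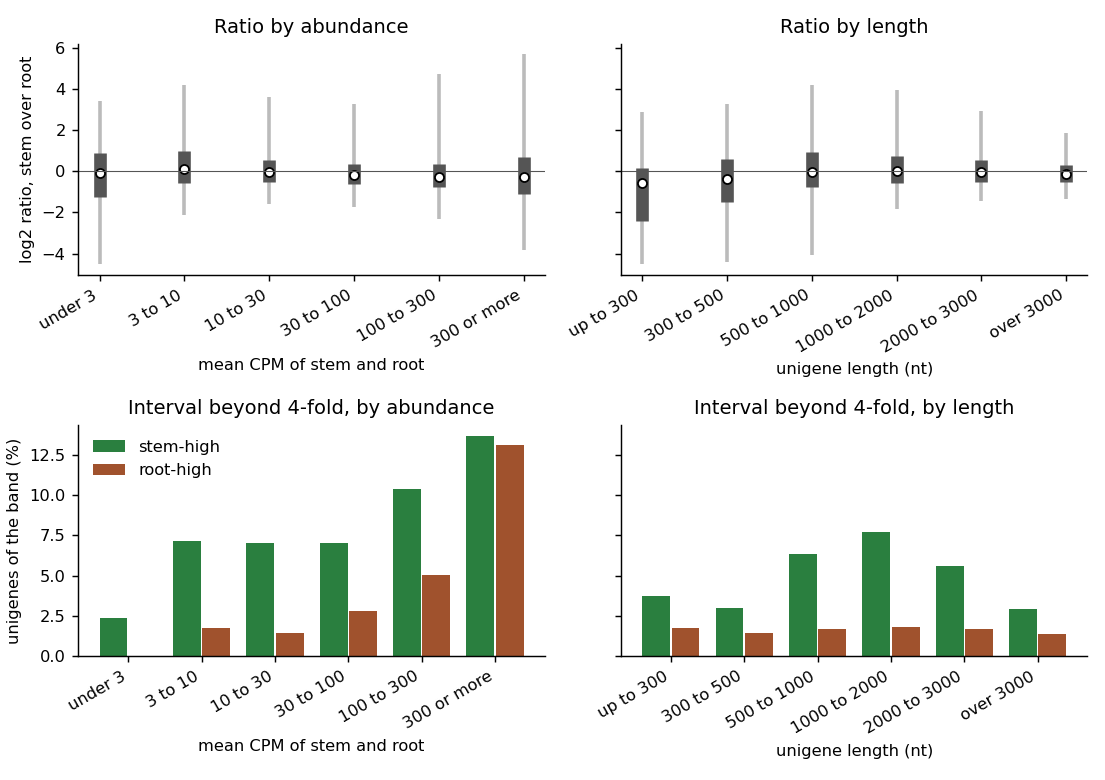
Upper panels give the log2 ratio of stem over root by mean CPM (left) and by unigene length in nt (right), with circles for medians, thick bars for quartiles and thin lines for the 5th to 95th percentiles. Lower panels give the percentage of each band that was stem-high (green) or root-high (brown); at 300 CPM or more the 2 bars are near each other at 13.6% and 13.1%.

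Length and abundance were then combined. At 3 to 10 CPM the median log2 ratio was -0.60 for unigenes of up to 300 nt, -0.30 at 300 to 500 nt, 0.14 at 500 to 1000 nt and 0.42 above 3000 nt, so the length gradient was steeper than over all unigenes. At 30 to 100 CPM it was flatter, with -0.27 at 300 to 500 nt (27 unigenes) and -0.14 above 3000 nt (1196 unigenes). In the lengths above 500 nt, the medians were all positive at 3 to 10 CPM and lay between -0.26 and -0.14 at 30 to 100 CPM. At 300 CPM or more the few short unigenes went the other way, with a median of 0.76 for 13 unigenes of up to 300 nt and 0.99 for 10 unigenes of 300 to 500 nt.

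**Figure D3:**
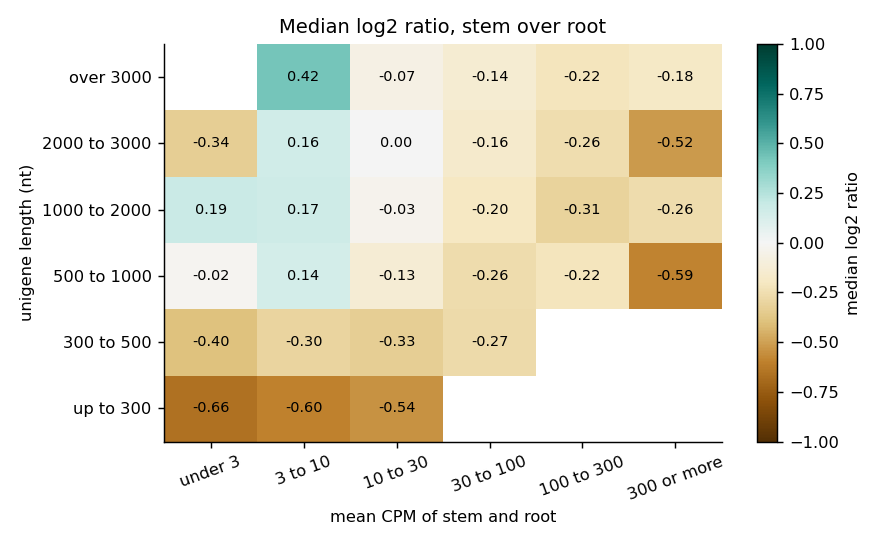
Median log2 ratio of stem over root for each combination of unigene length (rows, nt) and mean CPM (columns), with blank cells for fewer than 20 unigenes. Green cells are higher in stem and brown cells lower; the lowest median shown is -0.66, for unigenes of up to 300 nt below 3 CPM.

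Bands on the leaf level ordered the ratios differently. Leaf counts enter the ratio only through the choice of the 100 unigenes left out of the scale, and with these chosen over stem and root alone the median log2 ratio of all compared unigenes was -0.07. The median log2 ratio of stem to root was -2.17 for the 2596 unigenes with no leaf count, -0.40 for those with a count but under 1 leaf CPM, and -0.08 at 1 to 3 leaf CPM. It was 0.01 at 3 to 10 leaf CPM and again at 10 to 30, and 0.04 at 30 to 100. At 100 to 300 leaf CPM it was 0.41 (1274 unigenes), and at 300 leaf CPM or more it was 1.57 (406 unigenes). Unigenes abundant in leaf were thus higher in stem than in root, and banded on leaf the difference of 100 CPM or more against 3 to 10 CPM was 0.64, the opposite sign to that for bands on the mean of stem and root.

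In the highest leaf band 166 of 406 unigenes were stem-high (40.9%, against 6.29% of all compared) and 1 was root-high. The interval rule is easier to meet at higher counts. Median counts in this band were 1025.5 in stem and 453.5 in root, against 24 and 34 over all compared. By the ratio alone, stem was over 4-fold higher for 44.3% of this band (11.2% of all) and over 4-fold lower for 0.246% (7.40% of all). Among unigenes with no leaf count 65 were stem-high (2.50%) and 224 root-high (8.63%, against 1.68% of all). Their median counts were 2 in stem and 12 in root. By the ratio alone, stem was over 4-fold higher for 5.16% of them and over 4-fold lower for 53.8%. Of these 2596 unigenes, 725 came from the numbers 19000 to 24999 described below, a run picked for low ratios of stem to root. The median leaf level was 23.7 CPM for stem-high unigenes (quartiles 8.38 and 64.2), 2.09 CPM for root-high unigenes (0 and 9.08) and 8.38 CPM for the others. The limit that 0 counts allow in leaf was 2.09 CPM, which is the worth of 3 leaf counts. The median root-high unigene was thus counted in leaf, but only at the level of that limit. No leaf count was recorded for 32.7% of the root-high unigenes. Stem-high unigenes held 20.8% of the leaf counts outside the 100 most counted (exact interval 20.73% to 20.87%), and root-high unigenes 0.668% (0.654% to 0.681%).

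**Figure D4:**
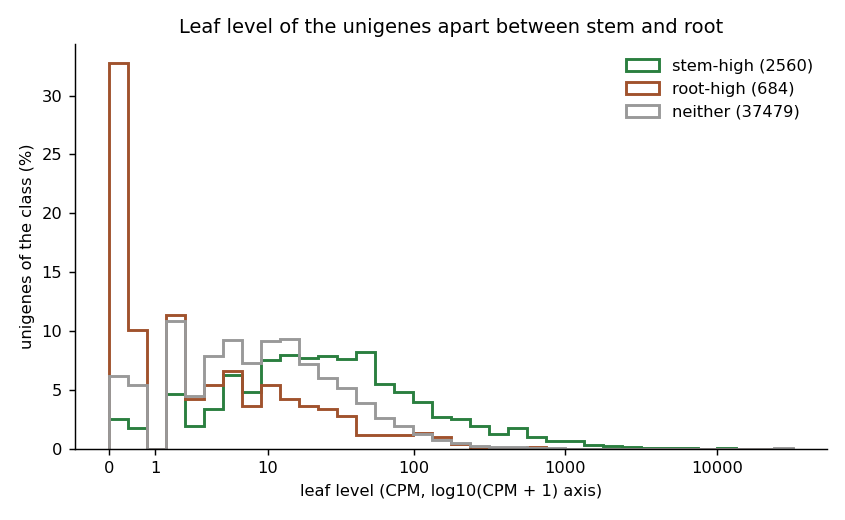
Leaf level in CPM (horizontal, drawn as log10 of CPM + 1) of the 2560 stem-high, 684 root-high and 37479 other compared unigenes, as a percentage of each class. Root-high unigenes pile up at 0, where 32.7% of them lie, and the stem-high curve is shifted to the right; gaps at the low end are the steps of 1 leaf count.

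Some unigenes were counted in 1 of the 2 organs alone. No root count was recorded for 686 compared unigenes, which had a median of 17 stem counts and at most 566. No stem count was recorded for 1081, which had a median of 15 root counts and at most 220. Of those without root counts 79, and of those without stem counts 67, had 50 or more counts in the other organ. Leaf had no count for 9.48% of the unigenes absent from root and for 81.3% of those absent from stem, against 6.37% of all compared. Of the 1081 without stem counts, 394 came from the numbers 19000 to 24999 described below, and 391 of these had no leaf count either. At the floor itself, the 1256 unigenes with 10 summed counts had a median of 4 stem and 6 root counts, and the 1541 left out with 9 had 3 and 6.

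Unigenes with neighbouring numbers in their IDs had more similar ratios. Across 29313 pairs of compared unigenes with consecutive numbers, the log2 ratios correlated at Pearson's r = 0.211 and Spearman's rho = 0.198. The values were 0.131 and 0.117 for numbers 2 apart (28812 pairs), 0.049 and 0.032 for numbers 10 apart (28831 pairs), and 0.020 and 0.013 for numbers 1000 apart (26288 pairs). All pairs share the same 2 libraries and their depth, and unigenes are not independent. When a unigene was stem-high, the next number was stem-high in 374 of 1818 pairs (20.6%, against 6.29% of all compared). For root-high unigenes this was so in 96 of 493 pairs (19.5%, against 1.68%). At 10 numbers apart these shares were 6.66% and 1.71%. Near-identical unigenes may have shared reads in the authors' counting, and whether neighbours are pieces of 1 locus was not tested.

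One run of numbers stood out. In the 6 blocks from 19000 to 24999, 530 of 1166 compared unigenes were over 4-fold lower in stem by the ratio alone (45.5%, against 7.40% of all), and the median log2 ratio was -1.33. By block, that median ran from -3.94 in the block from 20000 to -0.05 in the block from 24000. The run was picked after the values were seen, as the blocks of 1000 numbers with at least 100 compared unigenes of which 25% or more were so placed. Its unigenes had a median of 3 stem, 17 root and 0 leaf counts and a median length of 734 nt. No stem count was recorded for 33.8% of them, against 1.74% of the other compared unigenes, and no leaf count for 62.2%, against 4.73%. Of all 6000 unigenes numbered there, compared or not, 44.5% had a stem count, 94.2% a root count and 15.6% a leaf count.

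Of these weakly counted unigenes 82 passed the interval rule as root-high, which is 7.03% of the run, against 1.68% of all compared. They were 12.0% of the root-high calls, while the run was 2.86% of the compared unigenes. The 82 were unevenly spread, with 49 in the block from 20000, 14 in that from 19000 and 11 in that from 21000. The blocks from 22000, 23000 and 24000 had 3, 2 and 3 root-high unigenes, and more stem-high ones, at 8, 8 and 10. Stem-high calls in the run numbered 59, or 5.06%, against 6.29% of all. The run held 17.6% of all unigenes over 4-fold lower in stem by the ratio alone. Without it the median log2 ratio of the remaining 39557 unigenes was -0.02, with 2501 stem-high and 602 root-high. The block of the opposite kind, the 1000 numbers from 27000 on, had 74 of 311 unigenes over 4-fold higher in stem (23.8%, against 11.2% of all) and 4 over 4-fold lower. The source of the sequences in these blocks was not tested.

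**Figure D5:**
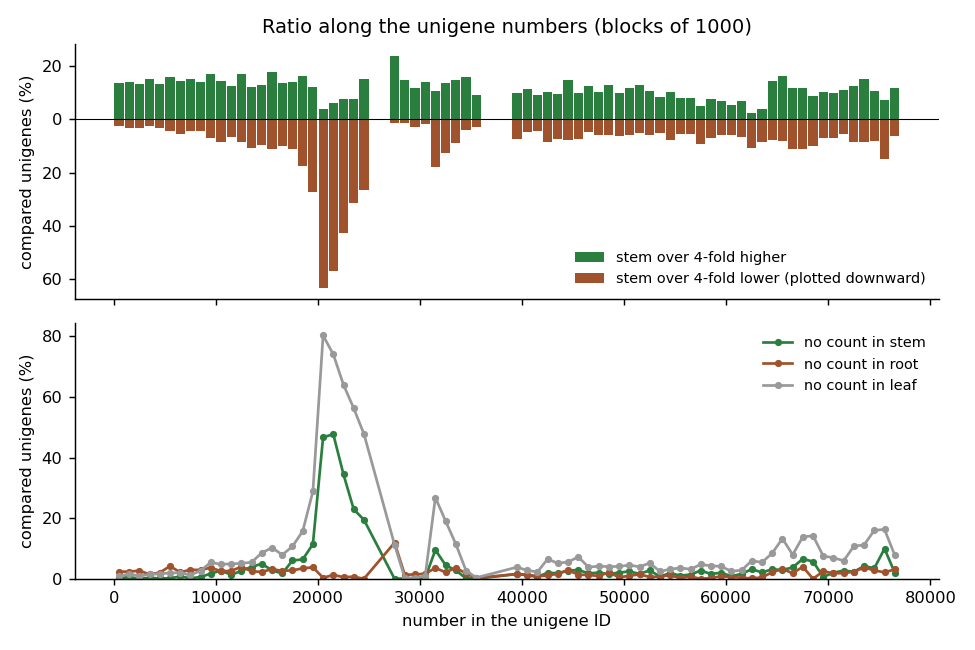
Upper panel: percentage of compared unigenes over 4-fold higher in stem (green, upward) and over 4-fold lower in stem (brown, downward) by the ratio alone, in blocks of 1000 unigene numbers with at least 100 compared unigenes. Lower panel: percentage with no count in stem, root or leaf; the peak from 20000 to 21999 reaches 47.7% for stem and 80.3% for leaf.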

How the data were processed

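The submitters' processing notes list Trimmomatic and RSEM with no version; how unigenes were assembled and reads aligned is not given in the sources used here. Each library table gives, per the file headers, a length, an effective length, an expected count and a TPM; the deposited expected counts are RSEM estimates that were whole numbers throughout, and the deposited TPM are the authors' levels per effective length, scaled to 1000000.

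Counts were scaled to library totals without the 100 unigenes most counted over the 3 libraries. Log2 ratios carried a prior of 1 count in all, split in proportion to these totals. Ratio intervals were exact conditional binomial (Clopper-Pearson), from scipy 1.17.1 under Python 3.11.15, and were checked on simulated counts. No count test was run, since 1 library per organ leaves no spread. edgeR 4.0.16 and DESeq2 1.42.0 under R 4.3.3 gave alternative scales only. Thinning drew root counts without replacement. Counting spread was 1.349 times the median standard error of the log2 ratio. Unigenes were named by largest summed count among those called outside the 100, 2 each way. The members, bands and rules were chosen with earlier results of these data known. Reads copied from 1 molecule could not be told apart. The merged table of FPKM was not used.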

Additional observations from a re-analysis of the deposited data

How the results depend on the processing

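Each reported count and median was recomputed under other settings, and 56 of 85 values stayed within 1.5 times of the reported count or within the rank-based 95% interval of the reported median, and 29 moved; the intervals are narrow, since they treat unigenes as independent. No paired analysis was possible because each organ has 1 library, and no library could be left out. Stem-high and root-high unigenes numbered 4679 and 2181 with intervals beyond 2-fold, 1307 and 202 beyond 8-fold, and 4559 and 3013 by the ratio alone; 1496 were stem-high with 50 summed counts required, and 436 root-high on total counts. Stem-high unigenes were the majority of calls under every setting run, from 60.2% by the ratio alone to 88.1% on total counts. The median log2 ratio was 0.33 on total counts, where its sign turned, -0.12 with TMM factors, -0.13 with DESeq2 size factors, -0.24 with upper quartile factors, -0.085 and -0.067 on totals without the 10 and the 1000 most counted, -0.068 without the 100 most counted over stem and root, -0.12 with 50 summed counts, 0 with root thinned, and -0.022 without the run of numbers from 19000 to 24999, an alternative chosen after seeing the data. Total counts thus shifted the median by 0.37 and upper quartile factors by -0.20. The length difference was 0.095 with 1 summed count required, 0.25 at 3 CPM, 0.16 with root thinned, 0.37 with no prior, and 0.22 with a prior of 5. Within abundance bands it was 0.19 under 3 CPM, 0.54 at 3 to 10, 0.12 at 30 to 100, and -1.35 at 300 CPM or more, where 13 unigenes were of up to 300 nt and 10 of 300 to 500 nt; at 100 to 300 CPM too few were short for a value. The abundance difference was -0.083 with 50 summed counts and 0.64 in bands on leaf, and stayed between -0.43 and -0.36 otherwise. Depth limits every statement on absence: 0 counts allow 1.19 CPM in stem and 0.689 CPM in root.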
